A study of Danio rerio with 4 samples.

Results

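Msp mutant zebrafish embryos were compared with wild-type embryos at 3 days post fertilization (dpf), which is 1 of 2 stages in a study of 4 two-colour Agilent arrays. The comparison consists of the 2 arrays of that stage, out of 4 arrays in all, and was described over 18207 of the 26622 genes that had complete values. A gene was kept when its brightest probe was well above background in at least 1 genotype on both 3 dpf arrays. Each genotype gave 1 RNA pool of 30 whole embryos of the WIK strain, raised untreated at 28 °C. The labels name mutant and wild-type crosses but no allele, and they do not say whether the pools shared parents, so genotype, cross and clutch cannot be told apart. The mutant pool was labelled with Cy5 on array 1 and with Cy3 on array 2, and the wild-type pool carried the other dye. The labels name 1 RNA sample per genotype and stage but do not state outright that both arrays carried the same extracts, so this was assumed, and both arrays were treated as a dye swap and as 1 replicate. No test was therefore possible, and no p-value is given. The words higher and lower refer to values without a test, and every SD is the spread between the 2 arrays, which is technical if they carried the same extracts.

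Macrophage stimulating protein (Msp, gene mst1) is a secreted relative of plasminogen and hepatocyte growth factor that the liver makes as an inactive precursor. In mammals, membrane and plasma proteases such as hepsin and matriptase cleave it into its active form. The active protein binds the receptor tyrosine kinase Ron, which is found on epithelial cells and tissue macrophages and is related to the receptor Met.

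To check the label of whole embryos, 30 tissue marker genes were listed. The 28 of them on the array were all well above background in both genotypes on both arrays. They cover 14 tissues, from muscle and liver to pigment cells, and their log2 ratios of mutant over wild type lay between -0.69 and 0.52. Between 59.7% and 74.9% of the probes were well above background in a genotype on an array. In whole embryos, fewer cells of a type and less RNA per cell cannot be told apart. Across the 18207 genes, the log2 signals of the mutant and wild-type pools correlated at 0.995, as a description across genes of pools that share arrays. The median log2 ratio was 0.02, and 97.4% of the genes lay within 0.5 of 0. The mean ratio was above 0 for 54.7% of the genes and below 0 for 45.3%. It was above 0 on both arrays for 31.8% of the genes and below 0 on both for 26.6%, while for 7573 genes (41.6%) the sign differed between the dye orientations. A group of 75 genes stood at 0.5 or more on array 1 and at -0.5 or less on array 2, and none had the opposite pattern. The average over both dye orientations put these 75 genes between -0.10 and 0.23.

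Genes were counted by a size rule. The mean log2 ratio had to be 1 or more in size, and each array had to show at least 0.5 in the same direction. The genotype with the stronger signal also had to be well above background on array 1 and array 2. Of the 18207 genes, 61 (0.335%) passed. The mutant pool was higher for 29 (0.159%) and lower for 32 (0.176%). With Agilent's own processed signals, which subtract the background without an offset, 152 genes were higher and 123 lower, and all 61 were among them. The SD between arrays was at most 0.46 for the 61 genes. Among genes with a symbol, those just inside the rule on the high side were pcdh2g29 (1.01) and igfbp1a (1.02), and just outside it were itgb4 (0.95) and pdxka (0.93). However, the 3 other probes of itgb4 lay between -0.31 and -0.10, and the 2 of pdxka between -0.01 and 0.03. On the low side, also among genes with a symbol, col8a1a (-1.03) and tmem45a (-1.04) were just inside, and chd1l (-0.98) and crp3 (-0.97) just outside.

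**Figure D1:**
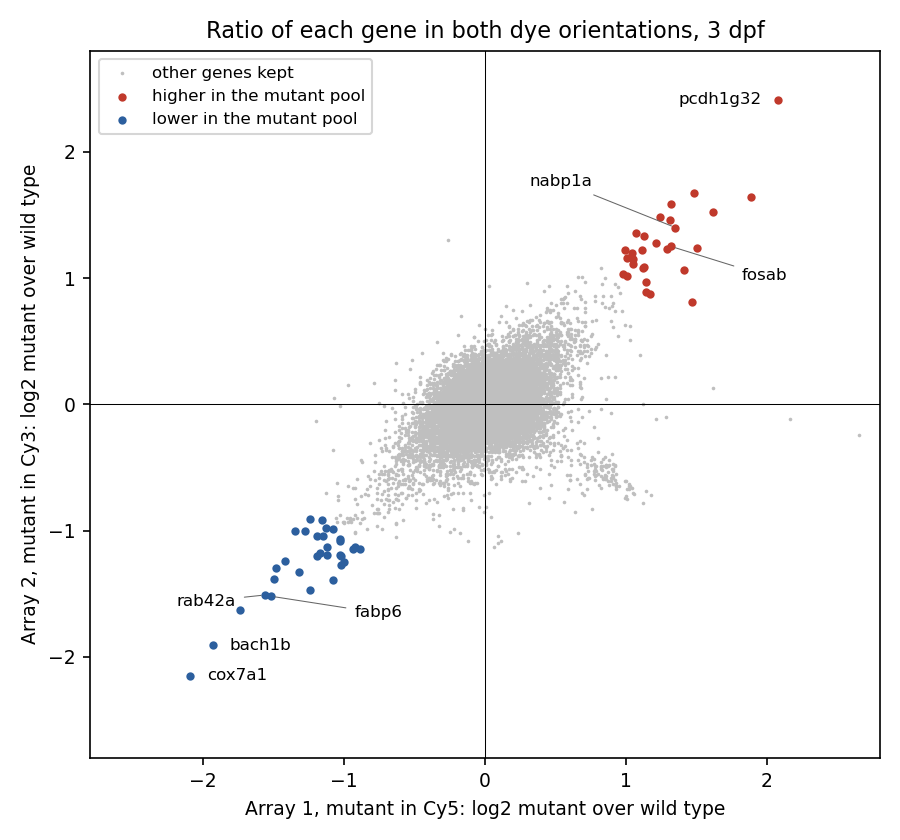
Log2 ratio of mutant over wild type on array 1 (horizontal axis, mutant in Cy5) and array 2 (vertical axis, mutant in Cy3) for each gene kept at 3 dpf, with the 29 higher genes in red, the 32 lower genes in blue and the others in grey. The coloured genes lie near the diagonal, from cox7a1 at -2.12 to pcdh1g32 at 2.25, and the grey group at lower right holds the 75 genes whose sign followed the dye.

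The mutated gene itself was lower in the mutant pool. The log2 signal of mst1 was 6.35 on array 1 and 6.74 on array 2 in the mutant pool, against 7.04 and 7.35 in the wild-type pool. Both mutant values lay below both wild-type values, and the probe was well above background in both pools. The mean log2 ratio was -0.65 ± 0.06, which does not reach the size rule. With Agilent's processed signals it was -1.75. Since the allele is not given, the position of the probe relative to the mutation is unknown, and the value alone does not check the genotype labels.

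The other measured genes of the pathway stayed closer to 0. Of the 10 genes kept from the list of Msp, Hgf, their receptors and their proteases, 4 were above and 6 below 0, none passed the size rule, and the median was -0.03. The ligand gene hgfa, which encodes hepatocyte growth factor, was at 0.10 ± 0.01. The gene plg, which encodes their relative plasminogen, was at -0.19 ± 0.03. The receptor gene met was at 0.06 ± 0.06. A gene of Ron, the receptor of Msp, was not among the 10 genes kept. Of the proteases, hpn (hepsin) had 0.46 on array 1 and -0.31 on array 2, so its sign followed the dye. The matriptase gene st14a was at -0.19 ± 0.02 and habp2, the gene of a plasma protease, at -0.06 ± 0.04. Of the protease inhibitors, spint1a was at -0.34 ± 0.09, spint1b at 0.00 ± 0.05 and spint2 at 0.29 ± 0.20. The 2 other probes of spint1a gave -0.19 and 0.21.

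Of the 29 higher genes, 15 carry a gene symbol. The gene with the highest ratio was pcdh1g32, which encodes a clustered protocadherin, an adhesion protein of neurons. Its log2 signal was 9.21 and 9.27 in the mutant pool, against 7.13 and 6.86 in the wild-type pool. The mutant pool was 4.75-fold higher, with a log2 ratio of 2.25 ± 0.23. The genes pcdh2g28 (1.1 ± 0.02) and pcdh2g29 (1.01 ± 0.01) of another protocadherin cluster also passed, and they are neighbours with no gene between them in the RefSeq order. The 3 other probes of pcdh2g28 lay between 0.13 and 0.61. Clustered protocadherins are similar in sequence, and binding of a probe to transcripts of several members was not tested.

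Of the other higher genes, nabp1a, dpy30 and cbx7a encode proteins that act on DNA or chromatin. The single-stranded DNA-binding protein gene nabp1a, known in mammals for its role in the repair of DNA breaks, had a log2 signal of 8.97 and 8.98 in the mutant pool, against 7.63 and 7.58 in the wild-type pool. The ratio was 1.37 ± 0.04. The gene dpy30, a core subunit of histone methyltransferase complexes, was at 1.12 ± 0.12. The Polycomb gene cbx7a was at 1.11 ± 0.03. Other probes of dpy30 and cbx7a were also above 0, at 0.14 and 0.23.

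The remaining higher genes with a symbol had various roles. The mitochondrial translation initiation factor mtif2 was at 1.26 ± 0.04, whereas its other detected probe gave -0.02. The gene stard8 was at 1.37 ± 0.19. Its 3 other probes ranged from -0.03 to 0.74, and only 1 of them shared the sign. The hsp70-family gene hspa12a was at 1.22 ± 0.21, and its other probe was at 0.13. The galactosidase-like gene glb1l was at 1.1 ± 0.16, with another probe at 0.53, and tcta was at 1.06 ± 0.12. The gene igfbp1a, whose product binds insulin-like growth factors and which fasting and low oxygen raise in fish, had a log2 signal of 10.28 and 10.04 in the mutant pool, against 9.11 and 9.17 in the wild-type pool. Its ratio was 1.02 ± 0.21, and 2 further probes gave 0.94.

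Of the 32 lower genes, 21 carry a gene symbol. The lowest ratio belonged to cox7a1, a subunit of cytochrome c oxidase that in mammals is the form of heart and skeletal muscle. Its log2 signal was 8.30 and 8.22 in the mutant pool, against 10.40 and 10.37 in the wild-type pool. The mutant pool was thus 4.35-fold lower, with a log2 ratio of -2.12 ± 0.04.

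Low ratios also belonged to fabp6, mhc1ze and cela1.6. The gene fabp6, which encodes the bile acid-binding protein of ileal enterocytes, had a log2 signal of 6.85 and 6.92 in the mutant pool, against 8.36 and 8.44 in the wild-type pool. Its ratio was -1.52 on both arrays, and its other probe gave -0.38. The MHC class I gene mhc1ze had a log2 signal of 6.97 and 7.24 in the mutant pool, against 8.44 and 8.54 in the wild-type pool, which gives -1.39 ± 0.12. Its 3 other probes lay between -0.97 and -0.48. The elastase gene cela1.6, a product of the exocrine pancreas, was at -1.07 ± 0.24.

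The other lower genes had various roles. The small GTPase gene rab42a was at -1.54 ± 0.04. The calcium-dependent membrane-binding protein gene anxa6 was at -1.24 ± 0.22, and its 3 other probes were between -0.87 and -0.64. The plasminogen receptor gene plgrkt was at -1.15 ± 0.18, with 2 other probes below 0. The phospholipase gene pla1a was at -1.17 ± 0.01, whereas its other probe gave 0.00. The gene tecrb, an enzyme of very long-chain fatty acid synthesis, was at -1.09 ± 0.08, and auh, an enzyme of leucine breakdown, at -1.05 ± 0.15. The nucleolar gene nol12 (-1.33 ± 0.01), the piRNA pathway gene gtsf1 (-1.13 ± 0.01), alkbh6 (-1.11 ± 0.12), tmem182a (-1.05 ± 0.03) and the collagen gene col8a1a completed this group. The simple-epithelium keratin gene krt18b was at -1.12 ± 0.11, but its other detected probe gave 0.18. The gene tmem45a was measured 2.06-fold lower in the mutant pool, where it was not well above background on either array.

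**Figure D2:**
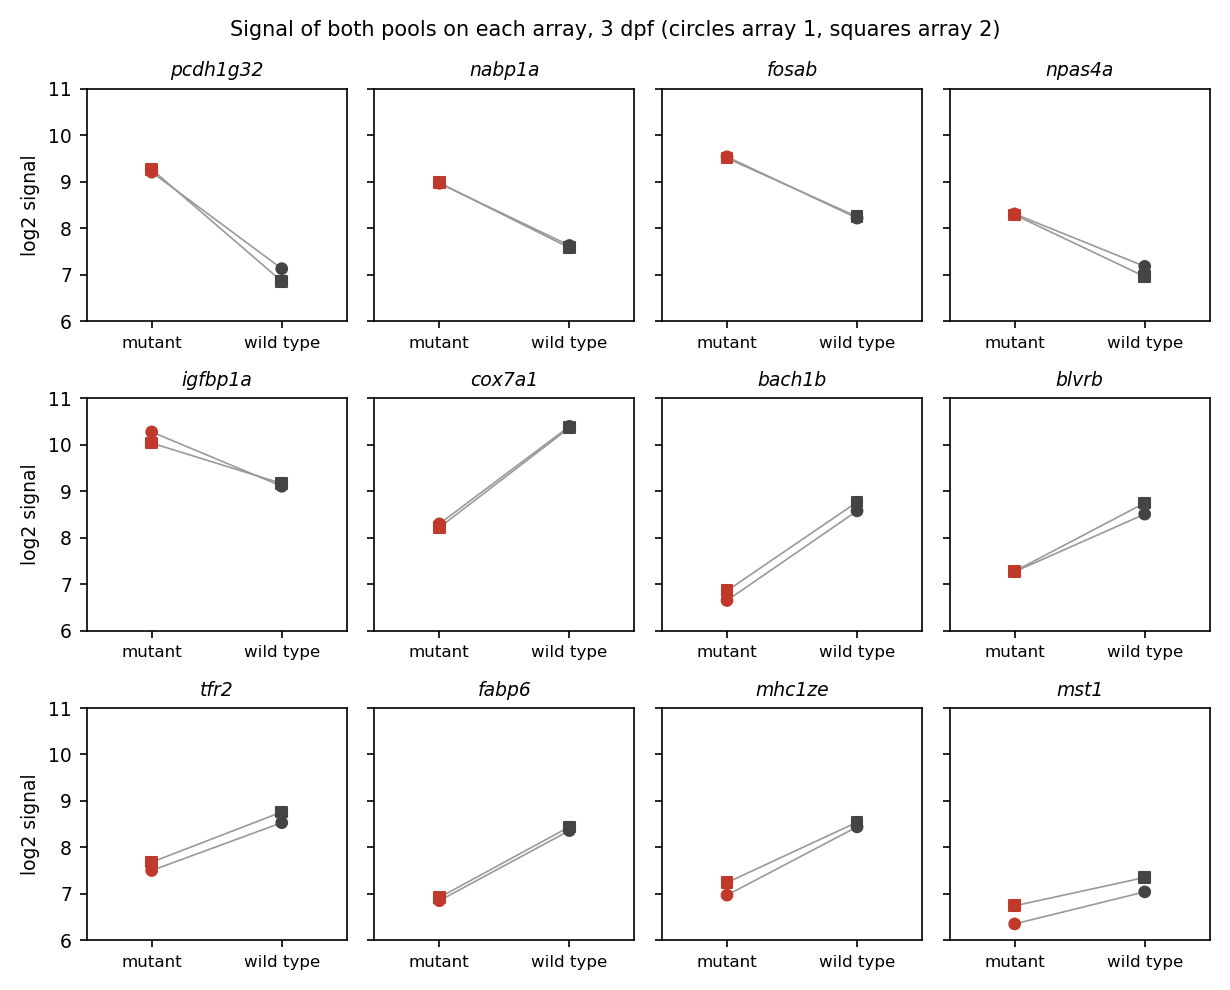
Log2 signal of 12 genes at 3 dpf in the mutant pool (left, red) and the wild-type pool (right, dark grey), with circles for array 1, squares for array 2 and a line joining the pools of 1 array. The arrays lie close together in each pool, and for mst1 (-0.65) the gap between pools is smaller than for the others shown, which passed the size rule.

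The other 25 genes carry a clone or locus name. A few of them were picked after their values were seen because the array annotation describes their product. The locus LOC100150527, described there as similar to soluble aconitase, was at -1.44 ± 0.09. The locus LOC100005636, described as similar to the pancreatic granule glycoprotein GP2, was at 1.17 ± 0.08. Of the 61 genes, 28 had further detected probes, and for 24 of these all further probes had the same sign. Only the sign was counted, and some of these probes lay near 0, such as those of pla1a (0.00), hspa12a (0.13) and dpy30 (0.14). The same share over all genes with further probes was not computed. The genes with a further probe of another sign were stard8, mtif2, krt18b and zgc:158846.

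Sterol synthesis was the gene group with the lowest median ratio of the 28 lists at 3 dpf. Cholesterol is built from acetyl-CoA through mevalonate and squalene to lanosterol, which is then trimmed to cholesterol. The transcription factor Srebf2 activates the genes of these enzymes when sterols are scarce. All 20 measured genes of the list were below 0 on each of the 2 arrays, where 26.6% of all genes were. The median was -0.62, with -0.61 on array 1 and -0.58 on array 2, beside 0.02 over all genes. A mean of -0.5 or less with the same sign on both arrays was met by 13 of the 20, beside 1.33% of all genes. None reached the size rule.

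The steps of the pathway differed in size. At its start, acat2 was at -0.36, and hmgcs1, the synthase that supplies the rate-limiting reductase, had a log2 signal of 10.78 and 10.85 in the mutant pool, against 11.61 and 11.57 in the wild-type pool. Its ratio was -0.77 ± 0.08. The reductase gene hmgcra was at -0.57 ± 0.36, with -0.82 and -0.31 on the arrays, and its relative hmgcrb was at -0.06. Of the enzymes that carry mevalonate to squalene, mvk was at -0.34, mvda at -0.69, idi1 at -0.53 and fdps at -0.70 ± 0.19. The squalene epoxidase gene sqlea was at -0.64, and lss, which closes the sterol rings, was at -0.70 ± 0.16. In the mean of both arrays, these early and middle genes were lower by 0.3 or more, with hmgcrb as the exception. However, mvk had -0.59 on array 1 and -0.09 on array 2, and its other probe gave -0.05. The arrays also differed for sqlea, with -0.37 and -0.91.

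The trimming of lanosterol gave similar values. The demethylase gene cyp51 had a log2 signal of 7.30 and 7.39 in the mutant pool, against 8.02 and 8.17 in the wild-type pool, a ratio of -0.75 ± 0.05. The isomerase gene ebp, the lowest member, had 7.99 and 7.94 in the mutant pool, against 8.73 and 8.93 in the wild-type pool, a ratio of -0.86 ± 0.18. The 2 other probes of ebp gave -0.42 and -0.34. The ratio was -0.63 for tm7sf2, -0.65 for msmo1, -0.39 for nsdhl, -0.60 for hsd17b7, -0.74 for sc5d and -0.34 for dhcr7. The 2 other probes of sc5d gave -0.35 and -0.02. The regulator genes were at -0.47 for insig1, which retains the Srebf proteins in the endoplasmic reticulum, and at -0.20 for srebf2 itself. However, the 2 other probes of srebf2 were lower, at -0.57 and -0.36.

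**Figure D3:**
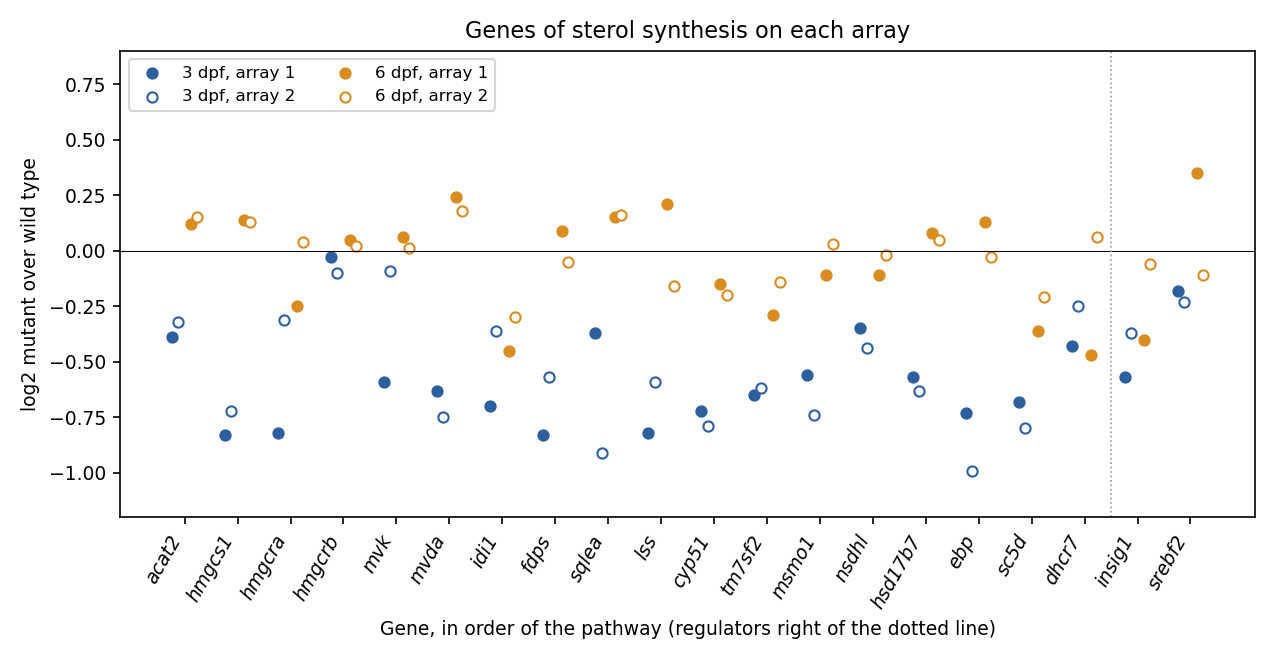
Log2 ratio of mutant over wild type for the 20 measured genes of sterol synthesis, in the order of the pathway, on array 1 (filled) and array 2 (open) at 3 dpf (blue) and 6 dpf (orange). All 3 dpf points lie below 0, with a median of -0.62, while the 6 dpf points lie on both sides of 0, with a median of 0.02.

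Genes of sterol handling outside synthesis did not share one direction. Of 12 measured genes for sterol uptake, transport and export, 7 were above and 5 below 0, with a median of 0.10. The cholesterol exporter abca1a had a log2 signal of 10.78 and 10.87 in the mutant pool, against 10.24 and 10.23 in the wild-type pool. Its ratio was 0.59 ± 0.07, and its 5 other probes were also above 0. Its relative abca1b was at 0.54 ± 0.17, and mylipa, whose mammalian relative marks the LDL receptor for breakdown, was at 0.48 ± 0.13. The duplicate gene mylipb was below 0 on both arrays, at -0.21 ± 0.12. On the low side were also the sterol carrier gene stard4, at -0.59 ± 0.06, and the LDL receptor gene ldlra, at -0.26 ± 0.12. In mammals, abca1 and mylip are targets of the liver X receptors, and stard4 and the LDL receptor gene are targets of Srebf2.

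Among 16 measured genes of fatty acid synthesis and desaturation, 5 were above and 11 below 0, with a median of -0.13. The desaturase gene fads2, which makes polyunsaturated fatty acids, had a log2 signal of 8.59 and 8.65 in the mutant pool, against 9.51 and 9.52 in the wild-type pool. Its ratio was -0.90 ± 0.03, and its 5 other probes were all below 0. The elongase gene elovl2, which works on the same fatty acids, was at -0.60 ± 0.03. The ATP citrate lyase gene aclya was at -0.34 ± 0.04, but its other probe gave 0.28. The gene acss2, which activates acetate, was at 0.60 on both arrays. The synthase gene fasn was at -0.04.

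Heme and iron genes held some of the lowest ratios, although the list as a whole was centred near 0. Heme is made in mitochondria from Alas enzymes onward, is broken down by heme oxygenases and biliverdin reductases, and its iron is carried by transferrin. Of 31 measured genes, 16 were above and 15 below 0, and the median was 0.02, with 0.03 on array 1 and -0.06 on array 2. The size rule was passed by 3 genes, all lower, beside 0.176% lower among all genes. The gene bach1b, whose mammalian relative is a heme-sensing repressor of heme oxygenase, had a log2 signal of 6.65 and 6.86 in the mutant pool, against 8.58 and 8.77 in the wild-type pool. The mutant pool was 3.78-fold lower, with a ratio of -1.92 ± 0.01, and the duplicate gene bach1a was at 0.08.

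The other members past the size rule were blvrb and tfr2. The biliverdin and flavin reductase gene blvrb had a log2 signal of 7.27 and 7.28 in the mutant pool, against 8.51 and 8.75 in the wild-type pool, with a ratio of -1.36 ± 0.17 and another probe at -0.46. The gene tfr2, an iron-sensing transferrin receptor of the liver in mammals, had 7.5 and 7.68 in the mutant pool, against 8.53 and 8.76 in the wild-type pool, with a ratio of -1.06 ± 0.04. The size rule that picked these genes already sets their mutant values below their wild-type values on each array. Next lowest on the list were hepcidin (hamp) at -0.76 ± 0.12, ceruloplasmin (cp) at -0.58 ± 0.02 and transferrin (tfa) at -0.53. Other members lay nearer 0, such as fth1b (-0.16), slc40a1 (0.05), hpxa (0.14) and fth1a (0.20). For cp, 2 other probes gave 0.02 and 0.07.

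Genes of heme synthesis lay on both sides of 0. The erythroid enzyme gene alas2 was at 0.52 ± 0.01, alas1 at 0.44 ± 0.10, and the transferrin receptor gene tfr1b at 0.55 ± 0.08. The heme synthesis gene alad was at -0.24, urod at -0.10, and cpox, hmbsa and uros between -0.05 and -0.03. The heme oxygenase genes hmox1a and hmox1b were at 0.30 and 0.24. Of 10 measured globin genes, 8 were below 0, beside 45.3% of all genes, with a median of -0.23. The beta globin gene ba1l was at -1.16 ± 0.05 and its other probe at -1.38, and it was well above background in the mutant pool on 1 array only. The genes hbaa1 and hbba1 were measured 1.66-fold and 1.49-fold lower in the mutant pool, where neither was well above background. The erythroid marker genes were thus on both sides of 0, with hbae3 at -0.38, hbbe3 at -0.22 and alas2 at 0.52, and their part in the heme and iron values was not tested.

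Activity-induced and early response genes were mostly above 0. These genes encode transcription factors and phosphatases that cells transcribe within minutes of a stimulus. Of 29 measured genes, 26 were above 0, beside 54.7% of all genes. The size rule was passed by 3, all higher, beside 0.159% of all genes. The median was 0.15, with 0.14 on array 1 and 0.12 on array 2. The AP-1 gene fosab had a log2 signal of 9.54 and 9.51 in the mutant pool, against 8.22 and 8.25 in the wild-type pool, a ratio of 1.29 ± 0.05. Its 2 other probes gave 0.73 and 1.27.

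The other early response genes past the rule were npas4a and egr4. The neuronal activity gene npas4a had a log2 signal of 8.31 and 8.29 in the mutant pool, against 7.18 and 6.96 in the wild-type pool, a ratio of 1.23 ± 0.14. The zinc finger gene egr4 had 8.71 and 8.81 in the mutant pool, against 7.70 and 7.65 in the wild-type pool, a ratio of 1.08 ± 0.10. Below the size rule, ier2b was at 0.67, ier2a at 0.60, atf3 at 0.56 and junbb at 0.51. The other probe of ier2a gave 0.04. The nuclear receptor gene nr4a1, also an early response gene, was at -0.42 ± 0.21.

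Inflammation genes had a median of 0.28 over 17 measured members, of which 15 were above 0, beside 54.7% of all genes, and none passed the size rule. A mean of 0.5 or more with the same sign on both arrays was met by 5 of them, beside 1.24% of all genes. The cytokine signalling inhibitor socs3a had a log2 signal of 8.97 and 8.87 in the mutant pool, against 8.06 and 8.07 in the wild-type pool, a ratio of 0.85 ± 0.08. The chemokine genes ccl34a.4 and cxcl18b were at 0.92 ± 0.10 and 0.70 ± 0.08. In the wild-type pool, ccl34a.4 was well above background on 1 array only. The other probe of cxcl18b gave 0.15. The gene irg1l was at 0.65 ± 0.15, with its other probe at 0.01, and ptgs2b, a cyclooxygenase, was at 0.60 ± 0.13. Hepcidin, counted in this list too, was its lowest member.

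Interferon response genes showed smaller values. Of 10 measured genes, 9 were above 0 on both arrays, beside 31.8% of all genes. The median was 0.18, and none reached 0.5. With Agilent's processed signals the median was 0.31. The antiviral genes isg15 and mxc were at 0.48 ± 0.04 and 0.47 ± 0.03, irf7 was at 0.31, and socs1a, an inhibitor of the pathway, was at -0.18. Among 10 measured genes of MHC class I and antigen presentation, 5 were above and 5 below 0, and apart from mhc1ze they lay between -0.15 and 0.30.

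Markers of white cells had medians near 0. Of 12 measured macrophage and microglia genes, 9 were above 0, beside 54.7% of all genes. Their median was 0.03, with ccl34b.1 at 0.36 and mpeg1.1 at 0.09. Of 9 neutrophil genes, 5 were above 0, with a median of 0.01. Among them the lysozyme gene lyz, with a log2 signal of 9.33 and 9.14 in the mutant pool against 9.92 and 9.93 in the wild-type pool, was at -0.69 ± 0.15, whereas mpx was at 0.04. The part of these cells in the inflammation values was not tested.

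Genes of the liver and exocrine pancreas were mostly below 0, while those of enterocytes lay on both sides of it. Of 27 measured hepatocyte genes, 20 were below 0, beside 45.3% of all genes, with a median of -0.19. The apolipoprotein gene apoa2 was at -0.66 ± 0.09 and the liver fatty acid-binding protein gene fabp10a at -0.62 ± 0.10, with a log2 signal of 11.02 and 11.09 in the mutant pool, against 11.71 and 11.63 in the wild-type pool. The protease inhibitor gene serpina1 was at -0.50 ± 0.08. The 7 members above 0 included igfbp1a (1.02), the only hepatocyte gene past the size rule, pck1 (0.40), cfb (0.33) and c9 (0.27). Of 12 exocrine pancreas genes, 9 were below 0, against the same share of all genes, with a median of -0.34. They included the chymotrypsin-like gene ctrl (-0.65 ± 0.14), the trypsin genes prss1 (-0.51 ± 0.04) and prss59.1 (-0.45 ± 0.05) and the isomerase gene pdia2 (-0.49 ± 0.13). Above 0 were the pancreatic transcription factor gene ptf1a, at 0.13, and the elastase genes ela2, at 0.06, and ela2l, at 0.21. The 22 enterocyte and bile acid genes had a median of 0.00, and apart from fabp6 they lay between -0.34 and 0.40, with the bile acid transporter gene slc51a at -0.34 ± 0.03.

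**Figure D4:**
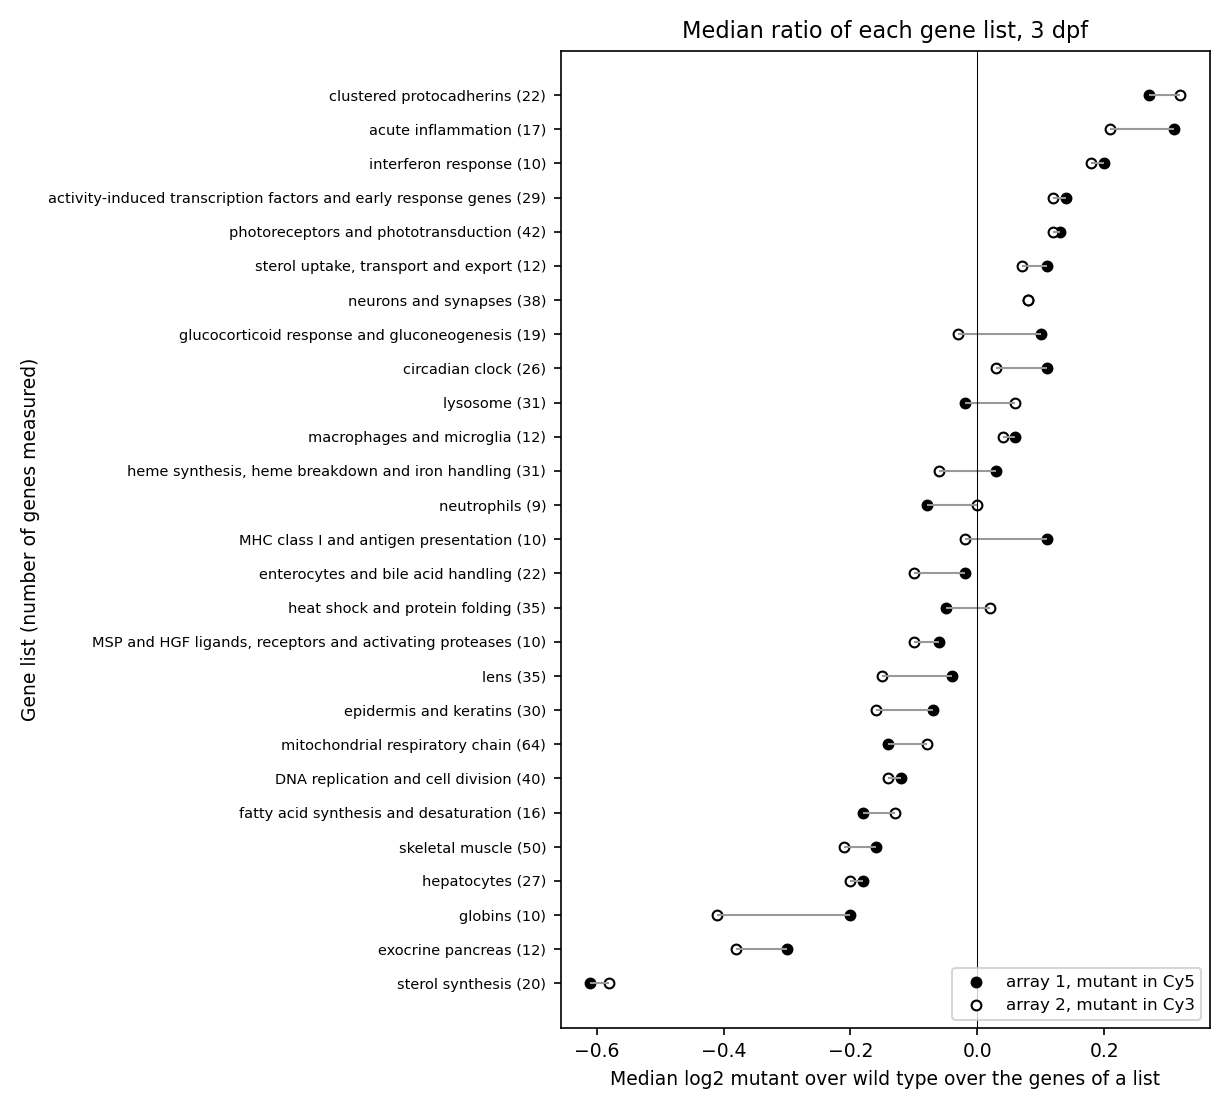
Median log2 ratio of mutant over wild type of 27 of the 28 gene lists on array 1 (filled) and array 2 (open) at 3 dpf, with the number of genes measured in parentheses. Sterol synthesis lies apart at -0.61 and -0.58, exocrine pancreas follows with a median of -0.34, and protocadherins (0.30) and acute inflammation (0.28) are at the upper end.

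Muscle, mitochondrial, skin and dividing-cell genes had medians slightly below 0. The counts that follow stand beside 45.3% of all genes below 0. Of 50 skeletal muscle genes, 40 were below 0, with a median of -0.19. The troponin gene tnni2a.4 (-0.66 ± 0.12), the slow myosin gene smyhc1 (-0.61 ± 0.11), the myosin light chain gene myl1 (-0.54 ± 0.12) and klhl41b, needed for the assembly of sarcomeres (-0.63 ± 0.12), were among the lowest, and none passed the size rule. The 2 other probes of smyhc1 gave -0.18 and -0.05. Of 64 respiratory chain genes, 51 were below 0, with a median of -0.11. Apart from cox7a1 they lay between -0.40 and 0.25, and ndufa6 and ndufv1 of complex I were at -0.40 and -0.39. Of 40 genes of DNA replication and cell division, 38 were below 0, with a median of -0.13. The chromatin assembly gene chaf1b was at -0.69 ± 0.13 and pcna at -0.36 ± 0.14. The 30 epidermal genes had a median of -0.10, and agr1 of mucus cells was at -0.51 ± 0.27.

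Photoreceptor and neuron genes had medians slightly above 0. Of all genes, 54.7% were above 0. Of 42 photoreceptor genes, 33 were above 0, with a median of 0.12. The rod phosphodiesterase subunit gene pde6ga had a log2 signal of 8.1 and 8.0 in the mutant pool, against 7.44 and 7.43 in the wild-type pool, with a ratio of 0.61 ± 0.06, and the outer segment gene prph2b was at 0.61 ± 0.04, with 2 other probes at 0.01 and 0.11. The 35 lens genes had a median of -0.06, with crybgx at -0.53 ± 0.13 and lim2.3 at 0.40 ± 0.05. The other probe of lim2.3 gave -0.06. Of 38 neuronal genes, 31 were above 0, with a median of 0.08. They ranged from slc32a1 at -0.35 to gad2 at 0.46 ± 0.08.

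Clustered protocadherins had a median of 0.30 over 22 measured members, and 21 were above 0, beside 54.7% of all genes. The gene pcdh2g29, which passed the size rule too, was not on this list. Beside pcdh1g32 and pcdh2g28, which passed, pcdh1g9 was at 0.71 ± 0.07 and pcdh1gb2 at 0.57 ± 0.01, while pcdh1g3 was the lowest at -0.03. The 2 other probes of pcdh1g9 gave 0.07 and 0.19, and those of pcdh1gb2 gave -0.01 and 0.57. Of the lists with medians closest to 0, the 31 lysosome genes (0.03) ranged from scarb2a, a lysosomal membrane protein, at -0.72 ± 0.16 to glb1l. The 35 chaperone and protein folding genes had a median of -0.01, with ddit3, a factor of the unfolded protein response, at 0.51 ± 0.04. The 19 genes of glucocorticoid response and gluconeogenesis (0.06) and the 26 clock genes (0.05) also lay near 0, with the metallothionein gene mt2 at -0.45 ± 0.03.

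The genes past the size rule were placed on chromosomes through the RefSeq annotation of another assembly than the array's, and only the order of genes was used. Of 12203 placed genes, 41 had passed (0.336%). The chromosome of mst1 held the highest share, with 6 of 540 (1.11%), and the next held 5 of 474 (1.05%), while 7 of 25 chromosomes held none. Away from the chromosome of mst1, 35 of 11663 genes (0.3%) had passed. A mean of at least 0.5 in size with the same sign on both arrays was met by 4.44% of the genes on that chromosome and by 2.5% elsewhere.

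The 6 genes were zgc:158846, mtif2 and tcta, which were higher, and krt18b, tmem45a and 1 gene known as a clone, which were lower. The clone zgc:158846 had a log2 signal of 10.94 and 10.77 in the mutant pool, against 9.05 and 9.13 in the wild-type pool, a ratio of 1.77 ± 0.17, but its other probe gave -0.03. It is the direct neighbour of krt18b. For 3 of the 6 genes, namely zgc:158846, mtif2 and krt18b, a further probe thus did not share the sign. The remaining genes, tcta, tmem45a and the lower clone, had no further detected probe to compare. None of the 6 lay next to mst1: between 110 genes (the unnamed clone) and 879 genes (mtif2) stood in between. The 16 kept genes within 20 genes of mst1 had ratios from -0.46 to 0.47. With Agilent's processed signals 11 genes of this chromosome passed, and with the mean of all detected probes 3 did.

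The 6 dpf pools of the same genotypes, processed alike, gave values for the same genes from other embryos. Of the 29 higher genes, 26 were also above 0 at 6 dpf, beside 52.3% of all 18207 genes, and 15 passed the size rule there in the same direction, beside 0.242%. Of the 32 lower genes, 30 were below 0 at 6 dpf, beside 47.7% of all genes, and 12 passed in the same direction, beside 0.236%. The median ratio of the higher genes was 1.22 at 3 dpf and 1.04 at 6 dpf, and that of the lower genes -1.14 at 3 dpf and -0.88 at 6 dpf. With 1 pool per genotype and stage, no difference between the stages was tested.

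Values close to those of 3 dpf were found at 6 dpf for pcdh1g32 (1.91), nabp1a (1.23), bach1b (-2.15), mhc1ze (-1.40), nol12 (-1.55) and tfr2 (-1.10). For rab42a the values were -1.54 at 3 dpf and -2.06 at 6 dpf. The gene cox7a1 was at -0.87 at 6 dpf, and mst1 was at -1.12. Of the 61 genes, 5 had opposite signs. These were fabp6, at -1.52 at 3 dpf and 0.54 at 6 dpf, the clone zgc:152809 (-1.03 and 0.60), picked after its values were seen, and the early response genes fosab (1.29 and -0.23), npas4a (1.23 and -0.42) and egr4 (1.08 and -0.03). The sterol synthesis median was -0.62 at 3 dpf and 0.02 at 6 dpf. The exocrine pancreas median was -0.34 at 3 dpf and -0.75 at 6 dpf, and that of photoreceptors was 0.12 at 3 dpf and 0.39 at 6 dpf.

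**Figure D5:**
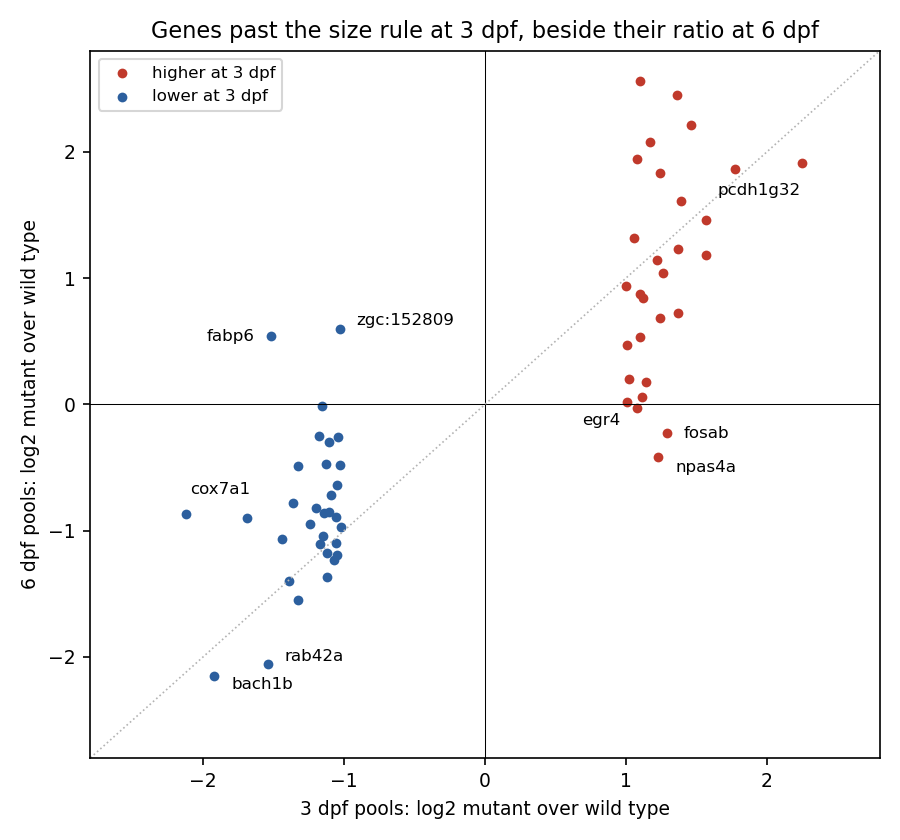
Mean log2 ratio of mutant over wild type at 3 dpf (horizontal axis) and at 6 dpf (vertical axis) for the 29 genes higher (red) and 32 genes lower (blue) by the size rule at 3 dpf, with equal values along the dotted line. Most genes keep their sign, and zgc:152809 (0.60), fabp6 (0.54), npas4a (-0.42), fosab (-0.23) and egr4 (-0.03) lie across the zero line at 6 dpf.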

How the data were processed

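The data were 4 two-colour Agilent arrays, and the 2 arrays of 3 dpf are described here. Scanning used Agilent Feature Extraction, version 10.5.1.1 per the file headers and 8.5.1.1 in the submitters' processing notes. The deposited scanner files hold intensity on a linear scale, from which the median per spot and its local background were used. The deposited LogRatio column is the log10 of red over green, per the file headers. In the deposited series table, the column of array 2 of 3 dpf held the log2 ratio of mutant over wild type, since it matched that array's own ratio with a correlation of 1 across probes. That of array 1 was taken as a deposited score with no known row order, and 3 of the table's columns were not used here.

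There were 45220 spots per array (1417 controls), and 24 to 25 outlier spots were left out. No spot was saturated. The median signal was 148 to 154 in green over a background of 47.5 to 49, and 184 to 187 in red over 87. The number of arrays limits the precision. Background was corrected with normexp (offset 50), loess followed within each array with controls at weight 0 (limma 3.58.1, R 4.3.3), and the sign was turned so that ratios are mutant over wild type. Signals per pool were also Aquantile-normalized between arrays. The procedure was tested on simulated data. Tables and figures used Python 3.11.15 (pandas 2.3.3, numpy 2.4.6, matplotlib 3.10.9).

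Spots were averaged per probe, and the brightest probe stood for its gene. Of 43603 probes, 25173 were named through an accession, 3192 through the symbol and 1425 through an older symbol in the RefSeq tables, 5555 only through the file's own symbol, and 8258 were unnamed. The probes were annotated to danRer 6 (Zv 8), per the file headers. As the files give no position for a probe, the order of genes was taken from RefSeq (GRCz12tu) and no coordinate is given.

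The text names the measured genes of the Msp list, the 15 genes with a symbol and the largest ratio each way past the size rule, list members past the rule, up to 6 members per list with at least 0.3 on each array, the genes around the fold of the rule and those on a chromosome singled out. Other list members were named for their role after their values were seen. The members and lists were chosen with earlier results of these data known, so a list's count supports nothing beyond its description. One gene list and some single values are not reported here.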

Additional observations from a re-analysis of the deposited data

Results flagged for a closer look

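The values below are of genes and lists whose log2 ratio of mutant over wild type had one sign on both arrays at 3 dpf and the opposite sign on both arrays at 6 dpf. The difference between the stages was not tested, and with 1 pool per genotype and stage it could not be.

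Among genes past the size rule at 3 dpf, fabp6 was at -1.52 at 3 dpf and 0.54 at 6 dpf, the clone zgc:152809, picked after its values were seen, at -1.03 and 0.60, fosab at 1.29 and -0.23, npas4a at 1.23 and -0.42, and egr4 at 1.08 and -0.03. The early response genes ier2b (0.67 and -0.09) and ier2a (0.60 and -0.20) followed the same order of signs. The other probe of ier2a gave 0.04 at 3 dpf.

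In sterol synthesis, hmgcs1 was at -0.77 at 3 dpf and 0.13 at 6 dpf, mvda at -0.69 and 0.21, sqlea at -0.64 and 0.15, hsd17b7 at -0.60 and 0.06, acat2 at -0.36 and 0.13, mvk at -0.34 and 0.04, and hmgcrb at -0.06 and 0.04. The citrate lyase gene aclya was at -0.34 and 0.09, and mylipa at 0.48 and -0.06. The other probe of aclya gave 0.28 at 3 dpf.

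Of the tissue genes, fabp10a of the liver was at -0.62 at 3 dpf and 0.51 at 6 dpf, slc51a of enterocytes at -0.34 and 0.27, agr1 of mucus cells at -0.51 and 0.70, and lim2.3 of the lens at 0.40 and -0.30. The other probe of lim2.3 gave -0.06 at 3 dpf. The globin genes hbaa1, hbae3 and hbbe3 were at -0.73, -0.38 and -0.22 at 3 dpf, and at 0.05, 0.90 and 0.02 at 6 dpf. In the mutant pool at 3 dpf hbaa1 was not well above background. The plasma protease gene habp2 was at -0.06 at 3 dpf and 0.11 at 6 dpf.

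Of genes of the inflammation and macrophage lists, ccl34a.4 was at 0.92 at 3 dpf and -0.08 at 6 dpf, cxcl18b at 0.70 and -0.30, and ccl34b.1 at 0.36 and -0.02. In the wild-type pool at 3 dpf ccl34a.4 was well above background on 1 array only. The other probe of cxcl18b gave 0.15 at 3 dpf.

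Of list medians, clustered protocadherins were at 0.30 at 3 dpf and -0.06 at 6 dpf, acute inflammation at 0.28 and -0.08, early response genes at 0.15 and -0.06, DNA replication and cell division at -0.13 and 0.19, globins at -0.23 and 0.05, and enterocytes at 0.00 (-0.02 and -0.10 on the arrays) and 0.01.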

How the results depend on the processing

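No paired analysis was possible because the labels name 1 RNA sample per genotype and stage, and both arrays were taken to hold the same extracts, which the labels do not state outright. Under 10 alternatives, the sign of all 41 named genes past the size rule stayed. Of the other named genes that were checked, 9 (fasn, habp2, hpn, met, mpeg1.1, mpx, pcdh1g3, ptf1a and spint1b) had another sign under at least 1. The same held for 8 of 28 list medians, all between -0.01 and 0.10. The count of higher genes was 29, against 45 with a normexp offset of 10, 152 with Agilent's processed signals, 19 with the mean of all detected probes and 160 with the series table for array 2 alone. The count of lower genes was 32, against 62, 123, 21 and 169 in the same order. On single arrays, 29 to 47 genes were higher and 38 to 43 lower. On the chromosome of mst1, 6 genes had passed, against 11 with processed signals, 3 with the mean of all probes, 13 with the series table and 3 to 7 on single arrays.

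The mst1 ratio of -0.65 was -0.99 with the smaller offset, -0.52 without background subtraction, -1.75 with processed signals, -0.72 with median centring, -1.51 in the series table and -0.61 to -0.70 on single arrays. The sterol synthesis median of -0.62 was -0.72, -0.56, -0.79 and -0.76 with the smaller offset, without background subtraction, with processed signals and in the series table. It was -0.54 over all probes, -0.57 without the filter on dim probes and -0.58 to -0.61 on single arrays. The early response median of 0.15 was 0.11 with median centring and without the filter, 0.10 over all probes and 0.12 to 0.14 on single arrays. The interferon median of 0.18 was 0.27, 0.16 and 0.31 with the smaller offset, without background subtraction and with processed signals. It was 0.12 without the filter, 0.14 with the stricter filter, 0.31 in the series table and 0.18 to 0.20 on single arrays. The heme and iron median of 0.02 was -0.06 to 0.03 on single arrays and -0.05 in the series table.

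Low signal limits these ratios. The 5 genes whose value moved most with processed signals, LOC796700 (-1.02, then -4.41), herc56.3 (-0.92, then -4.23), ENSDART00000131027 (-0.88, then -4.04), hbaa1 (-0.73, then -3.63) and hbba1 (-0.58, then -3.50), were not well above background in the mutant pool on either array. Genotype cannot be told apart from cross or clutch with 1 pool each, and the spread between embryos was not measured.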
